A study of Drosophila melanogaster with 20 samples.

Results

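Male brains of *Drosophila melanogaster* were compared between a diet without protein and a diet with equal parts of protein and carbohydrate. All flies were wild-type W1118 males aged 4 to 7 days, so both groups carry the W1118 allele of *white*. The low-protein, high-carbohydrate group (LPHC) was fed protein and carbohydrate at 0:1 and 180 g/L, and the high-protein, low-carbohydrate group (HPLC) at 1:1 and 180 g/L. Each group had 5 RNA-sequencing libraries, 10 of the 20 in the series, and the LPHC diet was the one linked to the longest sleep. The labels do not say whether a library holds 1 brain or a pool, nor how long the flies were fed. p-values therefore measure the spread between libraries, which may be technical.

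Of 12206 genes in the male table, 10115 were compared, those that reached a value of 10 in 5 libraries or more. A value is a read count that the authors divided by a size factor per library, so levels are comparable between libraries but not between genes of different length. Differences are LPHC minus HPLC on a log2(value + 1) scale, where 1 is a doubling for all but low genes, and a gene is said to have risen or fallen where limma's Benjamini-Hochberg adjusted p was under 0.05. Of the tested genes 9494 reached a value of 10 in every library, 39 reached it in HPLC libraries alone and 10 in LPHC libraries alone. The 124 genes just inside the limit had median values of 6.24 to 6157 over the 10 libraries, and the 111 just outside had 2.45 to 9.86.

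Animals without dietary protein must draw amino acids from their own stores. Cells respond to low amino acids mainly through the TOR and insulin pathways and the GCN2 kinase. These pathways set how much protein is made and how much is broken down by autophagy and the proteasome. Amino acids also feed other pathways: serine and glycine supply one-carbon units through folate, which build purines and methionine, and glutamine gives nitrogen to nucleotides. In the fly brain much of nutrient storage, transport and detoxification is carried out by glia and by the fat body around the brain, while neurons carry the channels, receptors and peptides of signalling.

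In total 2794 genes (27.6%) rose on LPHC and 2990 (29.6%) fell, 57.2% of those tested. The 25th and 75th percentiles of all differences were −0.31 and 0.23, and 1963 of the calls were smaller than 0.32 in size. Large differences ran mostly one way: 950 genes (9.39%) fell at least 2-fold and 134 (1.32%) rose at least 2-fold. The first principal component held 76.5% of the variance and separated the diets, and LPHC replicates 2 and 4 lay apart from the other 3 LPHC libraries on the second (5.99%). Without both of them 2846 genes rose and 3057 fell. Recovered reads per library were 21733987 to 35077559 on HPLC and 14715340 to 29523858 on LPHC.

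**Figure D1:**
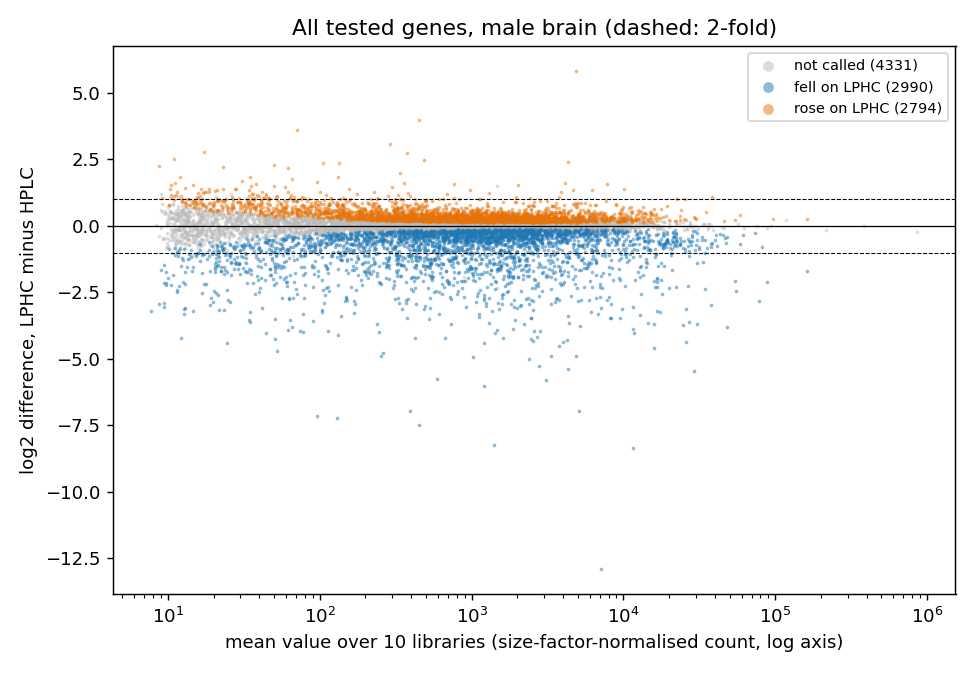
Difference between diets (log2, LPHC minus HPLC) of the 10115 tested genes against their mean value over 10 libraries (log axis). Genes that rose are drawn in orange, genes that fell in blue and the others in grey; the 2-fold lines show that falls beyond 2-fold (950 genes) outnumber rises beyond it (134).

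The share of calls in each direction depends on the scale set for each library. As deposited, 48.3% of the calls were rises. With all libraries scaled to the same total it was 75.1%, because every gene then shifts by 0.25 (5610 rises, 55.5%, and 1861 falls, 18.4%). At the same upper quartile it was 68.7% with a shift of 0.17 (4736 rises, 46.8%, and 2162 falls, 21.4%). Medians of gene groups are therefore given relative to the median gene, which removes that shift, and counts at equal totals follow those as deposited. A gene named below as not called, with a difference near 0 as deposited, also shifts by that amount, and many of these were called higher at equal totals. Group counts can be read against the percentages above.

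The brain label was checked against markers. Neuron markers (16 genes) took 0.618% to 0.658% of reads on HPLC and 0.731% to 0.956% on LPHC, with *elav*, *nSyb*, *Syt1* and *brp* present in every library. Photoreceptor markers took 7.81% to 8.45% and 8.19% to 9.94%, so the libraries hold RNA of the eye as well as of the brain. No value, or values of at most 8.07, were found for the defining gut protease markers *alphaTry*, *betaTry* and *Jon65Aiii*. The same held for the defining markers of the male accessory gland (*Acp26Aa* and *Acp70A*) and testis (*Mst87F* and *dj*). The other defining gut marker, the amylase gene *Amy-p*, was present in every library. It is given next with other genes listed as markers of these organs.

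Markers of several other cell types moved with diet. All 14 glia markers fell (10 at equal totals), and their share of reads was 0.271% to 0.305% on HPLC and 0.182% to 0.205% on LPHC. Of 15 fat body markers 11 fell and none rose, and the share went from 1.34% to 1.61% on HPLC to 0.351% to 0.519% on LPHC; the storage protein gene *Lsp2* was at 0 in 2 of the 5 LPHC libraries and *Lsp1alpha* in 3. Of 20 muscle markers 17 rose and 1 fell, with 0.418% to 0.518% of reads on HPLC and 0.786% to 1.01% on LPHC. Of 8 genes listed as gut markers 3 were tested, of which 2 fell and none rose. Their list took 0.116% to 0.146% of reads on HPLC and 0.0138% to 0.0239% on LPHC. The amylase gene *Amy-p* stood at 19282 to 24166 on HPLC and 1057 to 1900 on LPHC. Of 5 genes listed for the male reproductive tract the 2 tested, *Acp63F* (−1.65) and *Est-6* (−2.24), fell. That list took 0.0141% to 0.0188% of reads on HPLC and 0.00346% to 0.00536% on LPHC. The defining gut protease, accessory gland and testis markers were absent or at most 8.07. *Amy-p*, also a defining gut marker, went the other way and was present in every library. Whether the tested genes of these lists come from gut or reproductive tract cells was not tested. Of 12 haemocyte markers 7 fell and 3 rose (5 and 3 at equal totals), with 0.0582% to 0.0645% of reads on HPLC and 0.0436% to 0.0536% on LPHC. Fewer cells of a type and less RNA per cell cannot be told apart in these bulk libraries, and the part of these markers in the results that follow was not tested.

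Enzymes that build purines fell steeply on LPHC. De novo synthesis runs from PRPP to IMP, and 6 genes for its steps, and *Prps* for PRPP itself, had differences of −5.44 to −1.96. *Gart*, whose trifunctional enzyme catalyses several steps of the route, stood at 59002, 48139, 60338, 54802 and 61398 in HPLC replicates 1 to 5 and at 1297, 1522, 962, 1810 and 1100 in LPHC replicates 1 to 5. The groups were far apart, with every HPLC value at least 26.6 times every LPHC value (log2 −5.44, SE 0.14, adjusted p = 7.91e-13). *Prat2*, an amidophosphoribosyltransferase at the first committed step, stood between 20178 and 23444 on HPLC and between 1123 and 1897 on LPHC (−4.03). *Pfas* (−3.74), *AdSL* (−3.78), *Paics* (−2.32) and *CG11089* (−3.69; given the synonym atic, the last enzyme of the route, in the gene table) fell with them.

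The fall did not extend to every enzyme of nucleotide metabolism. *Prat*, the paralogue of *Prat2*, stood at 0.18 and was not called, but was called higher at equal totals (0.43). *AdSS*, which leads from IMP to AMP, stood at −0.05 (0.20 at equal totals), and *ras*, the IMP dehydrogenase that leads to GMP, rose by 0.20. In pyrimidine synthesis *r* (−0.54) fell and *r-l* (0.49), the UMP synthase gene, rose. Enzymes that degrade nucleotides fell: *ry*, xanthine dehydrogenase (−2.46), and *su(r)*, dihydropyrimidine dehydrogenase (−2.65). Over the list of 22 purine and pyrimidine genes 14 fell and 2 rose (13 and 7 at equal totals), with a median of −0.60 relative to the median gene.

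Folate and methionine metabolism fell along most of the cycle. Of 14 genes tested 13 fell and none rose (12 fell and 1 rose at equal totals), with a median of −2.84 relative to the median gene. *pug*, the trifunctional folate enzyme that interconverts one-carbon units, stood at 51321, 44740, 49742, 49641 and 52771 on HPLC and at 2144, 2766, 1903, 3223 and 2158 on LPHC. No value of one diet came near the other (−4.37, SE 0.12, adjusted p = 1.22e-12). Its mitochondrial counterpart *Nmdmc* fell (−3.25), as did *Ahcy* (−3.14), which clears S-adenosylhomocysteine. *Gnmt* (−2.55) and *Sardh* (−4.01), which make and remove sarcosine, and *Eip55E*, cystathionine gamma-lyase (−2.88), fell as well. The S-adenosylmethionine synthetase gene *Sam-S* fell less, by 1.40, and *AhcyL1* stood at −0.11 without a call (0.14 at equal totals).

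All 7 genes of the pentose phosphate pathway fell, as deposited and at equal totals (median −2.10 relative to the median gene). This pathway makes NADPH in its oxidative arm and ribose 5-phosphate, the sugar of nucleotides, in its other arm. *CG8036*, named Transk for transketolase among its synonyms, stood between 28424 and 33871 on HPLC and between 2779 and 4374 on LPHC (−3.22). *Taldo*, transaldolase, fell by 2.92, *Rpi*, ribose-5-phosphate isomerase, by 2.08 and *Rpe*, ribulose-phosphate epimerase, by 1.26. In the oxidative arm *Zw*, glucose-6-phosphate dehydrogenase, stood at −1.38, *Pgd* at −1.79 and *CG17333*, the lactonase between them, at −2.09, within the range of the other arm. Fat body markers fell over the same libraries (0.351% to 0.519% of reads against 1.34% to 1.61%), and 1 gene, *Gnmt*, is in both the fat body and the one-carbon lists.

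**Figure D2:**
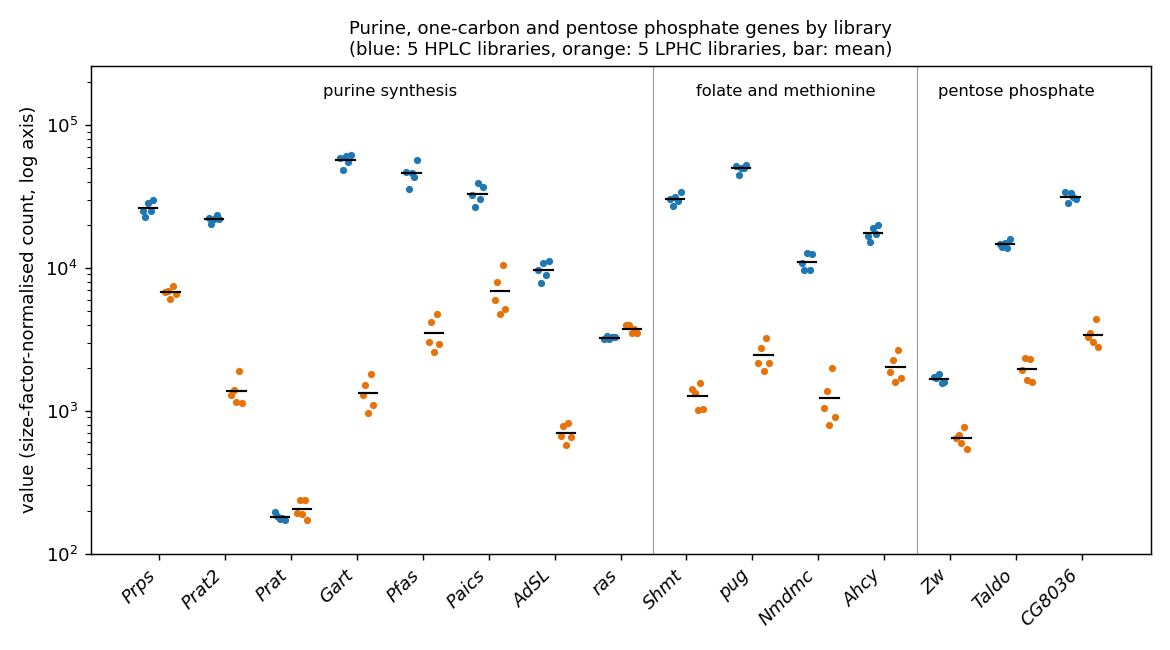
Value (log axis) of 15 genes of purine synthesis, the folate and methionine cycle and the pentose phosphate pathway in each of the 5 HPLC libraries (blue) and 5 LPHC libraries (orange), with the mean of each diet as a bar. In each gene drawn except *Prat* and *ras* all 5 LPHC values lie below all 5 HPLC values.

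Enzymes in and around the Krebs cycle included several that fell. *Idh*, the NADP-dependent isocitrate dehydrogenase, stood between 26283 and 30302 on HPLC and between 4631 and 6846 on LPHC (−2.28, SE 0.09, adjusted p = 5.84e-11). *Mdh1*, cytosolic malate dehydrogenase, fell by 1.55, and *PCB*, pyruvate carboxylase, by 1.51. Within the Krebs cycle list 12 of 22 genes fell and 1 rose (10 and 9 at equal totals), and the succinate dehydrogenase subunit gene *SdhB* was the one that rose (0.22). In glycolysis 13 of 15 genes fell and 1 rose (10 and 3 at equal totals; median −0.68 relative to the median gene), from *Hex-C* (−2.35) and *Pgi* (−1.23) to *Ald1* (−0.77) and *PyK* (−0.75). *Hex-A*, the other hexokinase gene, stood at −0.04 without a call (0.21 at equal totals).

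Genes that use NADPH or protect against oxidants fell as a group. Of 19 antioxidant and glutathione genes 17 fell and none rose (10 and 1 at equal totals). *Cat*, catalase, stood at 13147, 12421, 12248, 13206 and 11556 on HPLC and at 4291, 4789, 3739, 5129 and 3100 on LPHC (−1.59, SE 0.11, adjusted p = 2.04e-08). Its lowest HPLC value was over 2-fold its highest LPHC value. *Sod1* fell by 0.85 and the peroxiredoxin gene *Jafrac1* by 0.92. *cnc*, the NRF2 homologue that drives many of these genes, fell by 1.10, and so did *Keap1*, its inhibitor (−1.35).

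Metal carriers and mitochondrial transporters showed both directions. *Tsf1*, the secreted iron carrier transferrin and a fat body marker here, fell by 3.78, from between 71297 and 107611 on HPLC to between 5796 and 7221 on LPHC. *Ctr1B*, a copper importer, fell by 2.21, and the metallothionein gene *MtnA* rose by 0.42. Of 27 metal genes 17 fell and 2 rose (11 and 9 at equal totals). Among 19 mitochondrial carriers 8 fell and 5 rose (7 and 9 at equal totals), with *Bmcp*, an uncoupling protein, at −1.41, the aspartate-glutamate carrier *aralar1* at −0.93 and the pyrimidine nucleotide carrier *Rim2* at 0.54.

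The glutamine synthetase genes, whose enzymes make glutamine from glutamate and ammonia, fell: *Gs1* by 0.88 and *Gs2*, a glial enzyme, by 0.57. Amino acid transporters fell in 9 of 19 cases and rose in 2 (6 and 7 at equal totals), with the growth-linked transporter *path* at −1.04 and *slif* at −1.04.

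The machinery of protein synthesis split between the cytosol and the mitochondrion. Of 84 cytosolic ribosomal protein genes 80 fell and none rose (64 and 1 at equal totals; median −0.58 relative to the median gene), and the list took 7.29% to 8.42% of reads on HPLC against 5.72% to 7.18% on LPHC. Of 71 mitochondrial ribosomal protein genes 30 rose and 2 fell (65 and 1 at equal totals; median 0.14). *RpS13*, of the small cytosolic subunit, stood at 21442, 22806, 22276, 21945 and 22799 on HPLC and at 10369, 11545, 9794, 12061 and 9743 on LPHC. No library of one diet reached the other's range (−1.06, SE 0.07, adjusted p = 6.01e-09). *mRpL1*, of the large mitochondrial subunit, stood between 607 and 698 on HPLC and between 755 and 884 on LPHC, again without overlap (0.34, SE 0.06, adjusted p = 0.000247). *mRpL35* (−0.50) and *mRpL33* (−0.39, not called at equal totals) went against their list. *RpS14a*, which has a near-identical copy, is not counted as certain (−0.42).

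Among elongation factors the lowest difference (−1.68) lay below the lowest of the cytosolic ribosomal protein genes (−1.06). *eEF1alpha1*, which brings aminoacyl-tRNA to the ribosome, stood at 240870, 251849, 243498, 247717 and 249767 on HPLC and at 72447, 87362, 61985, 103137 and 66571 on LPHC. The HPLC libraries were close to each other while the LPHC libraries spread more, with replicates 2 and 4 the highest (−1.68, SE 0.13, adjusted p = 5.12e-08). *eEF5*, the hypusine-modified factor (−1.55), *eEF1gamma* (−1.11), *eEF1beta* (−1.05) and *eEF2* (−0.78) fell too. *eEF1alpha2*, the other eEF1alpha gene, stood at −0.00 with a 95% interval of −0.13 to 0.12 (0.25 at equal totals), and the mitochondrial factors *mEFTs* (0.25) and *mEFTu1* (0.19) rose. The list of 13 factors had 7 falls and 2 rises (7 and 5 at equal totals).

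Initiation factors fell in 19 of 36 cases and rose in 3 (7 and 11 at equal totals), led by *eIF1A* (−0.75), *eIF3g1* (−0.72) and the helicase *eIF4A* (−0.62). *pAbp*, the poly(A)-binding protein, fell by 1.01, and *Rack1*, a ribosome-bound scaffold, by 0.56. *eIF4EHP*, a cap-binding repressor, rose by 0.25. Cytosolic tRNA synthetases showed 7 falls and 3 rises among 18 as deposited, and no fall and 9 rises at equal totals, so no direction is given for that list. Ribosome biogenesis genes had 7 falls and 3 rises among 29 (1 and 17 at equal totals), with a median of −0.01 relative to the median gene.

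Genes of the proteasome, which degrades tagged proteins, fell within a narrow range. Of 32 subunit genes 29 fell and none rose (17 and 1 at equal totals), with differences of −0.65 to −0.08 and a median of −0.42 relative to the median gene. *Rpn6*, a scaffold of the regulatory lid, stood at 3156, 2885, 3523, 3027 and 3153 on HPLC and at 2024, 2045, 1924, 2183 and 1850 on LPHC (−0.65, SE 0.06, adjusted p = 6.29e-07). Those libraries did not overlap between diets. The 8 subunits of the cytosolic CCT chaperonin, by comparison, had 1 call, *CCT2* (0.30), and a median of 0.00 relative to the median gene (5 rises and no fall at equal totals).

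**Figure D3:**
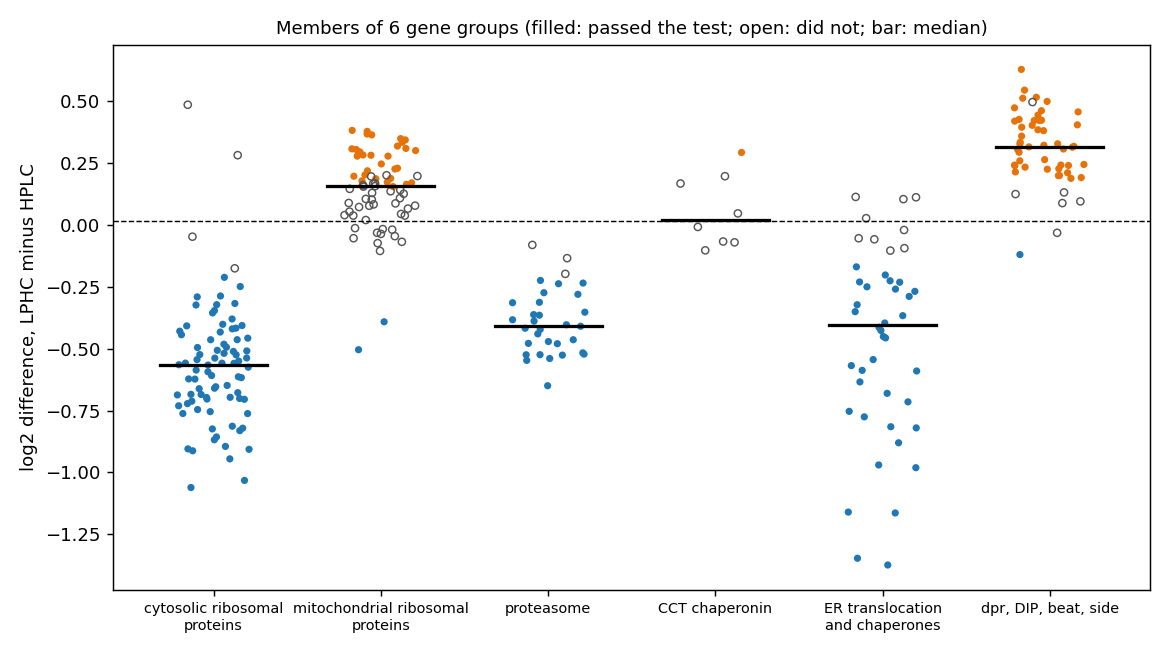
Difference between diets (log2, LPHC minus HPLC, as deposited) of every tested member of 6 groups: cytosolic and mitochondrial ribosomal proteins, proteasome subunits, CCT chaperonin, genes of the secretory entry (ER translocation and ER chaperones) and the dpr, DIP, beat and side surface proteins. Filled points passed the test, open points did not, the bar is the group median and the dashed line the median of all genes tested (0.02).

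The secretory pathway fell from its entry to the Golgi. Of 20 genes of ER translocation and signal peptide cleavage 16 fell (10 at equal totals), of 24 ER chaperones and unfolded protein response genes 19 fell (13), and of 27 coat and cargo receptor genes 21 fell (12). None of these 3 lists held a rise as deposited, and at equal totals 3, 5 and 6 genes rose. *Pdi*, protein disulphide isomerase, stood at 15333, 14870, 15138, 16141 and 14868 on HPLC and at 5978, 6350, 5461, 6487 and 5260 on LPHC. The values of the diets were over 2-fold apart (−1.37, SE 0.06, adjusted p = 2.37e-10). *ERp60* (−1.35), *Gp93* (−1.16), the BiP homologue *Hsc70-3* (−0.82) and the translocon channel *Sec61alpha* (−0.97) fell, and so did *Xbp1* (−0.88) and *crc* (−0.75), the transcription factors of the unfolded protein response, the latter the ATF4 homologue.

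N-glycosylation showed a split between the catalytic subunits of oligosaccharyltransferase. *Stt3B* fell from between 2384 and 2715 to between 911 and 1363 (−1.19, SE 0.09, adjusted p = 8.38e-08). *Stt3A* stood at 0.06 with a 95% interval of −0.05 to 0.16, and was called higher at equal totals (0.31). The other 4 subunits tested fell by 0.45 to 0.92. Enzymes of the lysosome fell in 15 of 24 cases and rose in 3 (14 and 7 at equal totals). *LManII*, an alpha-mannosidase, fell by 2.68, *Gba1b*, a glucocerebrosidase, fell by 2.55, *CtsB* by 1.07 and the saposin precursor gene *Sap-r* by 0.95. The cargo receptor gene *Lerp* rose by 0.17.

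Autophagy genes were mixed. *Atg13*, a subunit of the initiating kinase complex, stood between 2112 and 2480 on HPLC and between 737 and 932 on LPHC (−1.51, SE 0.07, adjusted p = 2.37e-10). Its partner *Atg101* rose by 0.44. The lipidation genes *Atg8a* (−0.56), *Atg3* (−0.51) and *Atg4a* (−1.05) fell, and *Atg4b* rose by 0.22. Over 21 genes 10 fell and 2 rose (7 and 9 at equal totals). Lipid chain modification fell: 14 of 17 elongases and desaturases fell and 1 rose (10 and 3 at equal totals), with *Cyt-b5-r* at −2.38 and *Elovl7* at −1.47. Genes of sphingolipid and phospholipid metabolism split, 12 lower and 4 higher of 26 (5 and 13 at equal totals), with the ethanolamine kinase *eas* at −1.04 and the glucosylceramide synthase *GlcT* at 0.43.

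Genes of the nucleus differed by small amounts, and their counts depended on scaling. Of 38 core spliceosome proteins 7 rose and 4 fell (28 and 0 at equal totals), of 29 Mediator subunits 8 rose and none fell (23 and 0), and of 53 chromatin remodellers and histone modifiers 14 rose and 3 fell (44 and 2). The shares that rose as deposited (18.4%, 27.6% and 26.4%) were no higher than the 27.6% of all genes tested. At equal totals 55.5% of all genes tested rose. Splicing regulators of the SR and hnRNP families rose in 14 of 29 cases and fell in 4 (24 and 0 at equal totals). *B52*, an SR protein, stood at 13443, 13886, 13454, 13787 and 14901 on HPLC and at 22818, 20546, 21209, 22260 and 21475 on LPHC. Its groups were widely separated (0.64, SE 0.05, adjusted p = 1.43e-07). *SC35* (0.47), *SF1* (0.49), the Polycomb group genes *Pc* (0.36) and *ph-p* (0.36) and *MED31* (0.43) rose. *Nurf-38*, the inorganic pyrophosphatase that is also a remodeller subunit, went the other way (−1.13), as did *Nup44A* (−1.44), a gene shared between the nuclear pore and the GATOR complex upstream of TOR.

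Neuronal genes rose in small steps. Of 53 dpr, DIP, beat and side genes, cell surface proteins of the immunoglobulin superfamily that mark neuron types and pair across synapses, 46 rose and 1 fell, *DIP-epsilon* (−0.12). That call was lost when any of 8 single libraries, HPLC replicates 1 to 5 and LPHC replicates 1 to 3, was left out (−0.13 to −0.09) and by edgeR (adjusted p = 0.132), and at equal totals all 53 rose, *DIP-epsilon* by 0.13. Their median was 0.30 relative to the median gene and 38 had libraries that did not overlap, against 42.7% of all genes tested. *beat-IV* stood at 1312, 1394, 1467, 1454 and 1439 on HPLC and at 2033, 2082, 2108, 1950 and 2133 on LPHC. The libraries of each diet were tightly grouped and apart (0.54, SE 0.05, adjusted p = 3.46e-07). *dpr5* (0.63) was the highest of the family, and *side* (sidestep), whose protein is bound by a beat protein, rose by 0.21. The 16 neuron markers rose in 8 cases and fell in 1 over the same libraries (15 and 0 at equal totals; median 0.18).

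Ion channels and transmitter systems followed the same direction, to an uneven extent between LPHC libraries. The median level of the channel list, relative to the median gene, was 0.07, 0.00, 0.20, 0.00 and 0.29 in LPHC replicates 1 to 5. On HPLC it was −0.15 to −0.07. In LPHC replicate 4 vesicle release (−0.051) and neuron markers (−0.098) lay inside their HPLC ranges (−0.137 to −0.045 and −0.159 to −0.036). The other LPHC libraries lay above those ranges. Of 42 voltage-gated and leak channel genes 28 rose and 2 fell (36 and 0 at equal totals; median 0.22). *Shab*, a delayed rectifier potassium channel, stood between 11767 and 12658 on HPLC and between 15694 and 19918 on LPHC (0.52, SE 0.07, adjusted p = 1.46e-05). *KCNQ* (0.50), the NALCN channel subunit genes *unc79* (0.44) and *unc80* (0.47) and the calcium channel *Ca-alpha1D* (0.46) rose, while the inward rectifiers *Irk1* (−0.50) and *Irk2* (−0.35) fell, though not at equal totals. In acetylcholine transmission, the main fast excitatory system of the fly brain, 13 of 16 genes rose and none fell (all 16 at equal totals), led by the choline transporter *ChT* (0.65) and *nAChRalpha2* (0.54). Vesicle release and recycling had 24 rises and 2 falls among 45 genes (42 and 0), with neuroligin *Nlg1* at 0.94, *Sytbeta* at 0.54 and *Nrx-1* at 0.32.

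The GABA and glutamate genes that fell were, with the exception of *Grd*, those of transmitter uptake and recycling. Of 32 GABA and glutamate genes 17 rose and 5 fell (25 and 5 at equal totals), and the 5 were *Eaat1*, *Gs1*, *Gs2*, the GABA transporter *Gat* (−0.61) and the receptor subunit *Grd* (−1.10). *Eaat1*, the glial glutamate transporter, stood at 9299, 8116, 9150, 8997 and 7971 on HPLC and at 3393, 4248, 4080, 3431 and 3378 on LPHC (−1.24, SE 0.08, adjusted p = 5.61e-09). *Eaat2*, by contrast, rose by 0.33. Of 36 monoamine genes 22 rose and 7 fell (26 and 4 at equal totals). *Trh* (0.74), the neuronal tryptophan hydroxylase for serotonin, *Ddc* (0.61) and the dopamine transporter *DAT* (0.43) rose. *ple*, tyrosine hydroxylase, fell by 0.41 (not called at equal totals), *e*, which conjugates dopamine to beta-alanine, by 0.99, and *Dhpr* by 0.57. *Gat*, *e*, *Eaat1* and *Gs2* are also on the glia marker list, all of whose 14 members fell.

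Peptides and their receptors rose over a wide range. Of 41 peptide genes 25 rose and 6 fell (28 and 6 at equal totals; median 0.42), and of 40 receptor genes 23 rose and 5 fell (31 and 3; median 0.23). *CNMa*, whose peptide is known from the fly gut as a signal of missing essential amino acids, stood at 76.8, 54.7, 46.1, 72.9 and 52.5 on HPLC and at 374, 467, 514, 651 and 600 on LPHC. Every LPHC library was over 4-fold above every HPLC library (3.08, SE 0.17, adjusted p = 1.34e-09). *Crz* (1.08), *Trissin* (0.91), *Capa* (0.82), *AstC* (0.81), *NPF* (0.77) and *Dh31* (0.77) rose as well. *CCHa2*, a peptide known from the fat body and gut of the fly, fell steeply, from 4673, 4989, 3090, 4965 and 3422 on HPLC to 536, 522, 467, 552 and 666 on LPHC (−2.93, SE 0.13, adjusted p = 2.37e-10). Its groups did not overlap, and the other genes of this list that fell were *Ilp5*, *Ilp6*, *Nplp2* (−0.87), *Nplp3* (−1.07) and *Nplp4* (−0.73). *Pdf*, the clock neuron peptide (−0.14), *Tk* (0.09) and *ITP* (0.00) were not called. Among receptors *PK1-R* (−1.84) and *AkhR*, the receptor of the adipokinetic hormone that mobilises stores (−0.57), fell, while *hec* (0.63), *NPFR* (0.60) and *Dh44-R1* (0.58) rose.

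The insulin-like peptide genes of the insulin-producing cells went in 3 directions. *Ilp3* stood at 155, 152, 95.4, 152 and 119 on HPLC and at 743, 510, 457, 445 and 538 on LPHC (1.99, SE 0.16, adjusted p = 7.98e-08). *Ilp5* stood at 372, 470, 278, 467 and 262 on HPLC and at 124, 90.7, 102, 97.9 and 107 on LPHC (−1.78, SE 0.16, adjusted p = 4.13e-07). *Ilp2* overlapped between the diets, from 3812 to 5442 and from 3575 to 4960, with a difference of −0.06 and a 95% interval of −0.29 to 0.18. The groups of *Ilp3* and *Ilp5* did not overlap, in opposite directions, within the same libraries. *Ilp6*, a fat body and glial member of the family, fell by 0.67.

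Nutrient-sensing genes did not move as one list: of 38 insulin and TOR genes 9 rose and 12 fell (21 and 7 at equal totals). *Thor*, the eIF4E-binding inhibitor of translation that FOXO activates, stood at 5752, 6638, 6676, 5767 and 7822 on HPLC and at 13719, 10518, 11126, 11566 and 10236 on LPHC, without overlap (0.81, SE 0.09, adjusted p = 5.06e-06). *Sesn*, sestrin, an inhibitor of TOR, rose by 0.53 and the insulin receptor gene *InR* by 0.20. *foxo* itself fell by 0.88, *Pi3K92E* by 0.63, *S6k* by 0.46 and *Lst*, a peptide that limits insulin release, by 1.75. *Tor* (0.03), *raptor* (−0.08) and *Rheb* (−0.03; 0.22 at equal totals) were not called. The sugar sensor gene *Mondo* (−0.86) and the lipid regulator *SREBP* (−0.72) fell, and *sug*, a target of Mondo, rose by 0.69 with overlapping groups (280 to 607 and 508 to 818).

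Clock and activity genes were considered because the diets differed in sleep. Of 30 clock genes 7 rose and 12 fell (15 and 4 at equal totals). *cry*, the blue-light receptor, stood at 9369, 9146, 9252, 8830 and 8627 on HPLC and at 4723, 4745, 4571, 4248 and 4114 on LPHC (−1.01, SE 0.05, adjusted p = 9.82e-10), and every LPHC value was well below every HPLC value. *per* rose by 0.54 with 1 LPHC library inside the HPLC range, and *cwo* fell by 0.63. *tim* (0.22) was not called with all libraries as deposited. It was called without LPHC replicate 2 (0.31, adjusted p = 0.00688) and without both LPHC replicates 2 and 4 (0.30). With all libraries it was called at equal totals (0.47) and at equal upper quartiles (0.38). Time of collection is not given in the labels. Of 17 activity-regulated genes 9 rose and 1 fell (14 and 1 at equal totals), with *Arc1*, the capsid-forming homologue of a synaptic plasticity gene, at 14737 to 18582 on HPLC and 23400 to 42670 on LPHC (1.02, SE 0.13, adjusted p = 1.25e-05).

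Sensory genes differed within families. Among the rhodopsins *Rh5*, of blue-sensitive R8 cells, stood at 2150, 1885, 2711, 1589 and 1761 on HPLC and at 735, 810, 785, 858 and 570 on LPHC (−1.41, SE 0.13, adjusted p = 6.91e-07). *Rh2*, of the ocelli, fell by 2.68 and *Rh6* by 0.58, while *Rh3* (0.04) and *Rh4* (0.07), of the ultraviolet-sensitive R7 cells, were not called. *ninaE*, of R1 to R6 cells, stood between 883274 and 976144 on HPLC and between 723941 and 872274 on LPHC, without overlap, and was not called (−0.21, adjusted p = 0.21). It was called lower with robust moderation (adjusted p = 0.0255), by DESeq2 (adjusted p = 0.00167) and without both LPHC replicates 2 and 4 (−0.29, adjusted p = 0.0371). Of 37 phototransduction genes 10 rose and 10 fell (20 and 7 at equal totals), and genes of the retinoid route, *ninaB* (−0.59), *santa-maria* (−0.41, not called at equal totals) and *pinta* (−0.71), were among those that fell. Odorant-binding proteins fell in 11 of 27 cases and rose in 5 (10 and 8 at equal totals), with *Obp44a*, known from glia, at −3.45. The median level of that list, relative to the median gene, was 0.40 and 0.52 in HPLC replicates 4 and 5 and 0.01 to 0.09 in the other HPLC libraries, and LPHC replicate 2 (0.17) lay above those 3. Olfactory and taste organ markers were also highest in these libraries, at 1.93 and 1.54 in HPLC replicates 4 and 5 and 1.30 in LPHC replicate 2. They were at −0.37 to −0.17 in the other HPLC libraries and at −1.04, −1.57, 0.34 and −0.30 in LPHC replicates 1, 3, 4 and 5. The part of these markers in the counts was not tested. Of 43 odorant, taste and ionotropic receptors that could be tested, of 118 in the table, 16 rose and 4 fell (22 and 2), with *Ir75a* at 0.92.

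**Figure D4:**
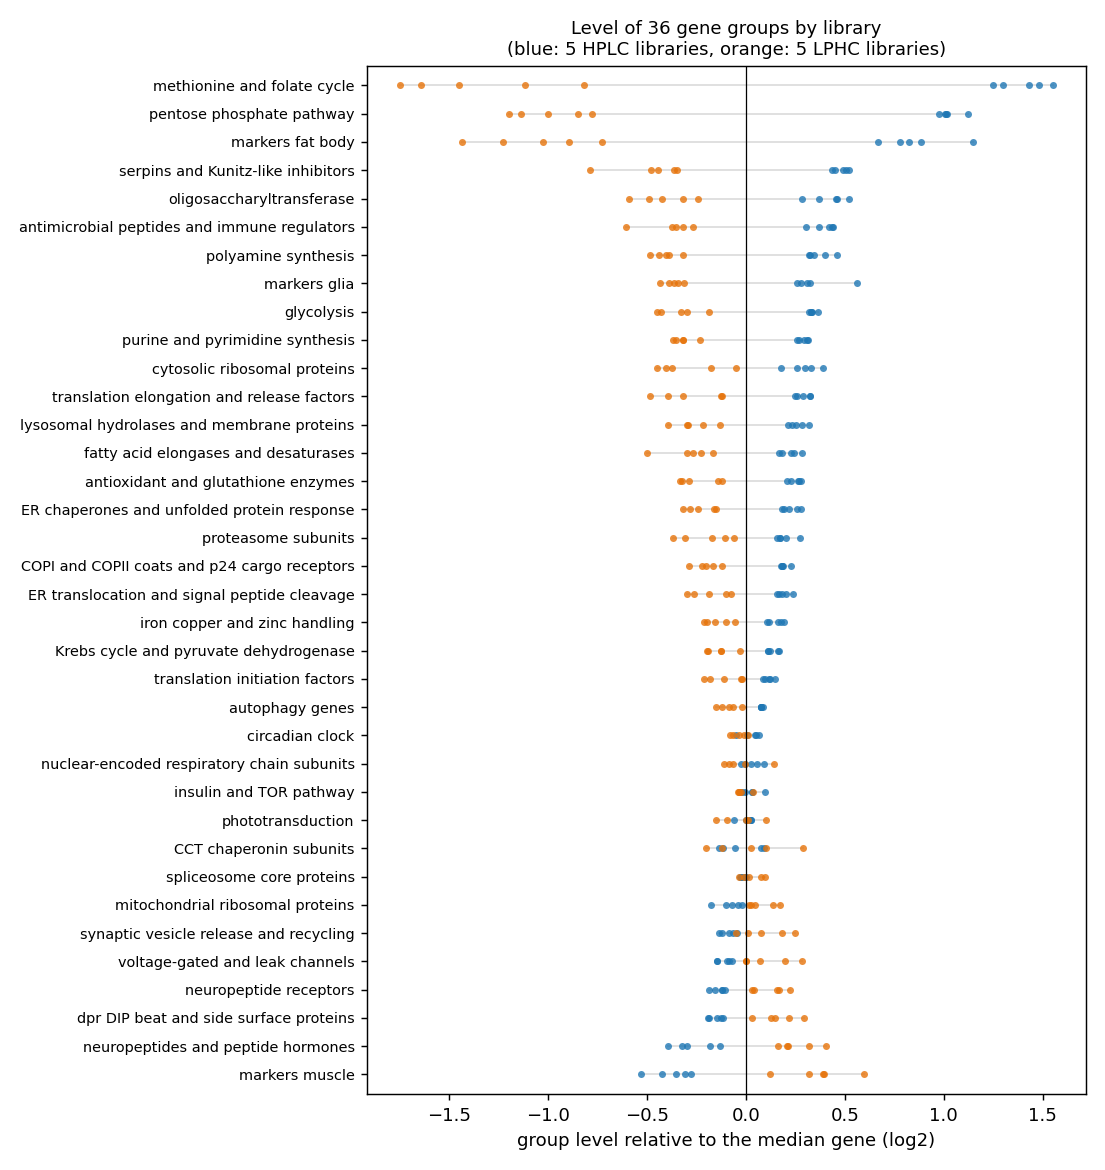
Level of 36 gene groups in each library: the median over members of log2(value + 1) minus each gene's mean over the 10 libraries, relative to the same over all tested genes, so that scaling cancels. Blue points are the 5 HPLC libraries and orange points the 5 LPHC libraries; the groups are ordered by the difference between diets, from the folate and methionine cycle (lowest on LPHC) to muscle markers.

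Several pairs of paralogues or related genes changed differently between the diets. These pairs were chosen after their values were seen. Besides *eEF1alpha1* and *eEF1alpha2*, *Stt3B* and *Stt3A*, *Eaat1* and *Eaat2*, and *Prat2* and *Prat*, the vacuolar pump subunit *Vha68-2* fell by 0.89 and *Vha68-1* rose by 0.16, a call lost without HPLC replicate 5 (0.14, adjusted p = 0.0537). The mitochondrial phosphate carriers were opposed. *Mpcp2* went from between 25882 and 27536 on HPLC to between 17107 and 19745 on LPHC (−0.57), and *Mpcp1* from between 1460 and 1716 to between 2484 and 3167 (0.86, SE 0.07, adjusted p = 2.64e-07). *Vha68-2* and *Mpcp1* did not overlap between diets, while *Vha68-1* did.

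**Figure D5:**
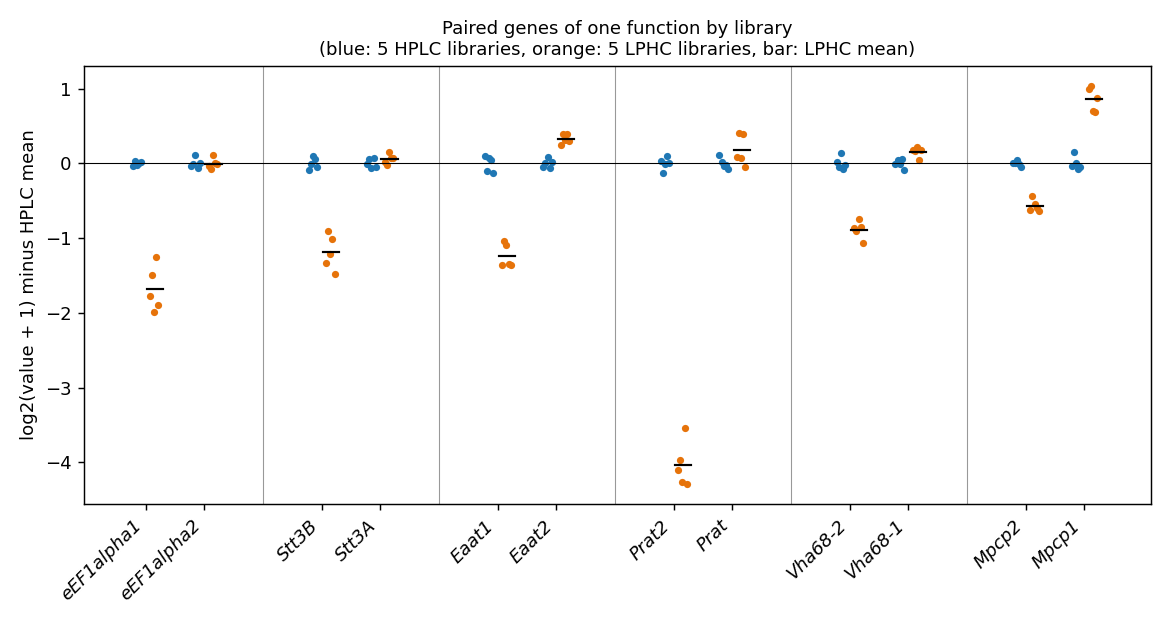
The 6 pairs of related genes, shown as log2(value + 1) in each library minus the gene's HPLC mean. HPLC libraries are in blue and LPHC libraries in orange. In each pair the first gene fell. Of the second genes *Eaat2*, *Vha68-1* and *Mpcp1* rose. *eEF1alpha2*, *Stt3A* and *Prat* were not called as deposited and were called higher at equal totals.

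Immune and protease inhibitor genes fell, while the direction of barrier genes depended on scaling. Of 50 antimicrobial peptides and immune regulators 40 fell and 1 rose, *PGRP-LE* (0.38), or 34 and 7 at equal totals, with a median of −0.78 relative to the median gene. *AttA*, an attacin, varied from 1673 to 5031 on HPLC and from 105 to 406 on LPHC (−3.92, SE 0.34). Of 18 serpins and Kunitz-like protease inhibitors 14 fell and 2 rose (11 and 3), with *nec*, the inhibitor of Toll activation, at −1.18. Haemocyte markers had a median of −0.76 relative to the median gene over the same libraries, and their part in the immune counts was not tested. Septate junction and blood-brain barrier genes fell in 12 of 25 cases with no rise (6 and 13 at equal totals), among them the receptor *moody* (−0.65) and the drug exporter *Mdr65* (−0.60). In the basement membrane the laminin chain genes *wb* (−2.55) and *LanB2* (−1.89) fell, and 10 of 26 genes fell and 2 rose (4 and 10 at equal totals).

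Outside the lists, the genes of highest level gave further differences. *CG12239* rose from between 20654 and 29063 to between 47643 and 57101 (1.08, SE 0.09, adjusted p = 1.37e-07), and *hfp*, a splicing factor named after its values were seen, by 0.62. *CG2233* fell by 2.82, from between 120286 and 148919 to between 16605 and 24542. *EbpIII*, named for the ejaculatory bulb, fell by 1.39, and *Tctp*, the growth-linked translationally controlled tumour protein, also named after its values were seen, by 0.70.

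A further 3020 genes (29.9%) were bounded near no change, with a 95% interval inside −0.32 to 0.32; 514 of them were also called. Photoreceptor and neuronal genes were among those of highest level. *Ggamma30A*, the photoreceptor G protein subunit, stood between 89533 and 95808 on HPLC and between 89294 and 100122 on LPHC (−0.00, interval −0.15 to 0.15; 0.25 at equal totals). *Atpalpha*, the sodium pump, stood at 0.01 (−0.14 to 0.16). The bound depends on scaling, since at equal totals 1548 genes met it. *w* stood between 51.6 and 83.2 on HPLC and between 65.5 and 111 on LPHC (0.41, adjusted p = 0.0514), and these ranges overlapped. It passed without HPLC replicate 2 (0.49, adjusted p = 0.0288), HPLC replicate 5 (0.46, 0.0493), LPHC replicate 2 (0.51, 0.0158) or both LPHC replicates 2 and 4 (0.44, 0.0461). It also passed by edgeR (adjusted p = 0.034), by DESeq2 (0.0321), with a pseudocount of 8 (0.0493), over genes at 10 or more in all 10 libraries (0.0496), at equal totals (0.66, 0.00329) and at equal upper quartiles (0.57, 0.00842), so the lack of a call depends on the setting.

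Gene structure, taken from the BDGP6.54 annotation for the 10098 tested genes it matched, varied with direction. In the quintile of genes with the shortest exonic length (median 828.5 bases) 19.8% rose and 31.5% fell. In the longest quintile (5817 bases) 31.98% rose and 21.9% fell. Level differed as well, with a median value of 225 in the shortest quintile and 2452 in the longest. Within the lowest quintile by level, 16.6% of the shortest genes rose and 21.4% fell, against 15.1% and 21.8% of the longest. In the next quintile by level these were 26.2% and 23.7%, against 33.3% and 27.5%. In quintile 3 by level they were 22.6% and 40.3%, against 31.5% and 20.6%. In quintile 4 they were 13.3% and 51.4%, against 32.9% and 25.4%, so the shortest genes fell more often than the longest in both. Among genes in the highest quintile by level, the shortest 160 had 111 falls (69.4%), while of the longest 927 33.4% rose and 19.1% fell. Of the shortest 160, 54 were cytosolic ribosomal protein genes, and of the remaining 106, 58 fell and 21 rose. On chromosome 4, 37.0% of 92 genes rose and 17.4% fell, while on the other arms 26.6% to 29.1% rose. Chromosome 4 genes also had a longer total exonic length (3946 bases at the median) and higher levels. Whether length or level accounts for their share was not tested.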

How the data were processed

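Total RNA of frozen male brains was extracted with Trizol and sequenced on Illumina libraries, per the labels' protocols. HISAT2 was the aligner, per the submitters' processing notes, and the counting tool, build and strandedness were not given in the sources used here. The authors deposited signal values, which are counts divided by a size factor of each library. Each value was a whole number of reads within 0.01, and these reads were recovered. The male table was used alone, 0 columns of values were left unused, and of 12206 genes 12179 matched the annotation (Ensembl release 115), used for names, exonic length and chromosome. No pair of libraries agreed within sampling noise (chi-square per degree of freedom at least 9.55).

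limma 3.58.1 (R 4.3.3) was fitted with an intensity trend on log2(value + 1), two-sided, over all 10115 tested genes. As alternatives the pseudocount, the filter, the scaling and the moderation of variances were changed, a replicate block was added, each library was left out, and edgeR 4.0.16 and DESeq2 1.42.0 were run on recovered reads. Python 3.11.15 with pandas 2.3.3 did the rest. A further analysis planned on protein composition and promoter motifs was not run, since no sequences were used here.

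The members and the 86 gene lists were chosen with earlier results of these data known. Lists are described by counts and medians, with no test. Genes were named from the 30 largest rises and falls, up to 6 members of each list with the smallest p, up to 2 against its majority, the highest-level genes in no list, the highest-level bounded genes and the defining markers; the text names a part of these. *AdSS*, *AhcyL1*, *Ald1*, *AstC*, *Atg8a*, *AttA*, *Capa*, *Cpr49Ag*, *DAT*, *Dh31*, *Gat*, *Gnmt*, *Gp93*, *Hex-A*, *Hsc70-3*, *ITP*, *Ilp2*, *Ilp6*, *InR*, *Jafrac1*, *Kr-h1*, *ND-51*, *NPF*, *NPFR*, *Nmdmc*, *Nplp2*, *Nplp3*, *Nplp4*, *Nrx-1*, *Paics*, *Pc*, *Pdf*, *Pfas*, *Prat*, *Rheb*, *RpS14a*, *Rpe*, *Sap-r*, *Sardh*, *Stt3A*, *Tctp*, *Tk*, *Tor*, *Trissin*, *Xbp1*, *br*, *crc*, *eEF1alpha2*, *hec*, *hfp*, *otp*, *per*, *pinta*, *r*, *raptor*, *santa-maria*, *side*, *sug*, *tim*, *unc79* and *unc80* were named after their values were seen.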

Additional observations from a re-analysis of the deposited data

Results flagged for a closer look

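In 21 of 466 groups of 5 libraries, 2 for each of the 233 genes named, 1 library stood far from the other 4 by Dixon's test, where chance alone flags about 1 in 20.

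LPHC replicate 2 gave 7 of them. *Hex-A* stood there at 7923 (5926 to 6481 in the other LPHC libraries) and *Rh3* at 43870 (29398 to 33007). The other 5 were low: *ph-p* at 1848 (2196 to 2287), *AkhR* at 932 (1183 to 1267), *Pi3K92E* at 1742 (1930 to 2002), *tim* at 4061 (5543 to 5825) and *hfp* at 16065 (19657 to 20643). In LPHC replicate 4 *Gp93* stood at 4310 (2613 to 3084) and *Ilp6* at 1624 (745 to 980). In LPHC replicate 3 *AttA* stood at 406 (105 to 156) and *Nlg1* at 543 (654 to 696), and in LPHC replicate 1 *Rheb* stood at 2555 (2279 to 2357).

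Among HPLC libraries, replicate 3 held *Ald1* at 51852 (45537 to 47313 in the others), *Pc* at 1012 (867 to 898), *Nplp3* at 2469 (1556 to 1811) and *Irk2* at 1472 (1219 to 1286). Replicate 1 held *eEF5* at 17963 (19158 to 19492) and *Kr-h1* at 834 (647 to 699), replicate 2 held *wg* at 183 (152 to 161) and *Cpr49Ag* at 206 (138 to 156), and replicate 5 held *CG17333* at 1626 (1414 to 1452).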

How the results depend on the processing

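The count of changed genes stayed within 1.5 times of 5784 under each alternative run, from 5311 to 5844 with single libraries left out (2502 to 2840 higher, 2809 to 3004 lower, 2714 to 3004 bounded near no change), with 5909 by edgeR and 5849 by DESeq2. Scaling moved the directions: at the same total 5610 genes were higher, 1861 lower and 1548 bounded, and at the same upper quartile 4736 were higher. These scalings shift every gene by 0.25 or 0.17, which by construction turns small differences. At the same total *AdSS* stood at 0.20, *AhcyL1* at 0.14, *Hex-A* at 0.21, *eEF1alpha2* at 0.25, *DIP-epsilon* at 0.13, *Rheb* at 0.22 and *Ggamma30A* at 0.25, and at the same upper quartile *eEF1alpha2* stood at 0.16, *DIP-epsilon* at 0.046 and *Rheb* at 0.13. Of 1190 list medians recomputed, 1139 moved by less than the spread between libraries and 51 by more. The 85 at the same total and the 85 at the same upper quartile, all among the 1139, could hardly move. They are taken relative to the median gene, which removes the shift. Without both LPHC replicates 2 and 4, 20 list medians moved by more than that spread and 65 by less.

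Replicate numbers did not pair the libraries: deviations of libraries with the same number correlated at −0.13 to 0.00. With the replicate number as a block 5354 genes passed, 2520 higher, 2834 lower, and 2794 were bounded. Leaving out both LPHC replicates 2 and 4, chosen after seeing the data, gave 5903 calls, and *r-l* then lost its call (0.23, adjusted p = 0.0534). The planned protein composition per library was not run. Genes near the limit of 10 and differences under about 0.32 are those that depth and 5 libraries per diet limit most.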

Other observations

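Hormone and developmental signalling lists were split or had more falls than rises as deposited. At equal totals each had more rises than falls, so no direction is given and their genes are given as values. Of 28 ecdysone and juvenile hormone genes 8 rose and 8 fell (13 and 6 at equal totals). *jhamt*, which makes juvenile hormone, fell by 1.83 and *Kr-h1*, the hormone's early response gene, by 0.77, while the ecdysone response genes *Hr3* (0.51) and *br* (0.39) rose. In the Notch pathway 8 of 20 genes fell and 2 rose (5 and 8 at equal totals): the receptor gene *N* fell by 0.56, and the target genes *E(spl)mbeta-HLH* (0.99) and *E(spl)m3-HLH* (0.70) rose. In the BMP and activin pathway 10 of 22 fell and 1 rose (5 and 8), with the protease gene *tld* at −2.18. In the Wnt pathway 8 of 25 fell and 6 rose (4 and 16), with the ligand genes *wg* at −0.70 and *Wnt2* at 0.68.

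Respiratory chain genes lay near the median gene, with 25 of 75 lower and 11 higher (4 and 44 at equal totals; median −0.06 relative to the median gene). The complex IV subunit gene *COX7A* fell by 0.43 and the complex I subunit gene *ND-51* rose by 0.28. Heat shock proteins and co-chaperones had 4 rises and 5 falls among 26 (8 and 2): the small heat shock protein gene *l(2)efl* rose by 1.53, while the constitutive chaperone gene *Hsc70-4* fell by 0.70. Genes of cilia and mechanosensation rose in 13 of 30 cases and fell in 1 (20 and 0), with the transport gene *Oseg2* at 0.80 and *nompA*, of the dendritic cap, at 0.68. Among 41 cuticle protein genes 11 rose and 11 fell (14 and 10), with *Cpr76Bc* at −3.17 and *Cpr49Ag* at 1.03. Neuronal identity factors had 20 rises and 10 falls among 50 (33 and 6), with *otp* at 0.82, *ap* at −1.01 and *svp* at −0.93.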
